A study of Mus musculus with 24 samples.

Results

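The 6 genes described here encode the structural proteins of caveolae: the caveolins Cav1 and Cav2, the cavins Ptrf, Sdpr and Prkcdbp (named Cavin1, Cavin2 and Cavin3 in newer annotations) and the neck ATPase Ehd2. They are 6 of the 37991 genes in the count table, matched by Ensembl identifier. The set was chosen by the lower level of Cav2 in PyMT samples at every week, so all differences between PyMT and FVB samples in these genes are given as a description without a test. Mammary tissue was profiled by directional RNA sequencing in 24 female mice, with 3 PyMT and 3 FVB mice at each of 4 ages. PyMT mice were F1 females carrying 1 copy of the MMTV-PyVT transgene on the FVB background. In these mice the mouse mammary tumor virus long terminal repeat drives the polyoma middle T antigen, chiefly in mammary epithelium. The labels call the PyMT tissue hyperplasia (week 6), adenoma/MIN (week 8), and carcinoma at an early (week 10) and a late stage (week 12). The controls were normal mammary glands of age-matched homozygous FVB females without the transgene.

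Caveolae are flask-shaped pits of the plasma membrane that are dense in adipocytes, endothelial cells and muscle. Caveolin oligomers insert into the inner leaflet, cavins coat the pit from the cytosol, and EHD2 forms rings around its neck that hold it at the cell surface. In the mammary gland, caveolin-1 is found in the fat pad, in vessels and in myoepithelial cells.

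Cav2 (ENSMUSG00000000058) and Cav1 (ENSMUSG00000007655) are neighbors on the plus strand of chromosome 6, at chr6:17231185-17239115 and chr6:17256335-17291452 (mm9, GENCODE M1), with 17219 bases between them. The other members are on other chromosomes: Ptrf (ENSMUSG00000004044) at chr11:100818047-100832201 on the minus strand, Sdpr (ENSMUSG00000045954) at chr1:51345970-51359803 on the plus strand, and Prkcdbp (ENSMUSG00000037060) and Ehd2 (ENSMUSG00000074364) at chr7:112629121-112630711 and chr7:16532326-16552916, both on the minus strand. Promoter windows of 300 bases, from 250 bases before the gene start, were taken from RefSeq (GRCm38.p6) for 5 of the 6 members, and each matched mm9 exactly once. Those of the neighboring caveolins and of Sdpr, the poorest in CpG of the 5, are shown 5′ to 3′. Around the group means, Cav1 followed Sdpr (r of 0.848) and Cav2 (0.793), while Cav2 with Sdpr was at 0.583. A link between these values and the promoters was not tested. Capitals mark matches, on either strand, to the GC box GGGCGG, the TATA box TATAAA, the CCAAT box CCAAT and the AP-1 motif TGANTCA.
Cav1, chr6:17256085-17256384, plus strand: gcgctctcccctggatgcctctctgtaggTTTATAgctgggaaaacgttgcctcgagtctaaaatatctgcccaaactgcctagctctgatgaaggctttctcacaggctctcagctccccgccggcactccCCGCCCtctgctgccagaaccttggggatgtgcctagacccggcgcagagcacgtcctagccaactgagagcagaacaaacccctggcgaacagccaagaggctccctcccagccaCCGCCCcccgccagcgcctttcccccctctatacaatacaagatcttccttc
Cav2, chr6:17230935-17231234, plus strand: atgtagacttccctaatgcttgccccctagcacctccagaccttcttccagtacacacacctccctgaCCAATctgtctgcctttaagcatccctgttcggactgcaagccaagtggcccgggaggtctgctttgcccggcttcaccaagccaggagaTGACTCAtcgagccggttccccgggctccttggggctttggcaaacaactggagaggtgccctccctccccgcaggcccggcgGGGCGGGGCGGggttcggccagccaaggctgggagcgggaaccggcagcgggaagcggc
Sdpr, chr1:51345720-51346019, plus strand: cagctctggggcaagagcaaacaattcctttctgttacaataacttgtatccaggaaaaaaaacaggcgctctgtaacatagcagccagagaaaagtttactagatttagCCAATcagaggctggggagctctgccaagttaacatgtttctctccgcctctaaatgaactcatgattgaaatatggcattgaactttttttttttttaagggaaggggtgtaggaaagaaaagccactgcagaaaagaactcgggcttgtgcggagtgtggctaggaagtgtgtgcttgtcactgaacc
The Cav1 window was 59.3% GC with 13 CpG dinucleotides, and the Cav2 window was 64.3% GC with 16. The Sdpr window was 43.3% GC with 4 CpG, against a median of 52.7% and 7 over all 32851 windows. Ptrf and Ehd2 had GC-rich windows, at 66.7% with 17 CpG and 62.0% with 18 CpG. A GC box was found in 4 of the 5 windows and in 35.7% of all windows. The boxes began at positions -118 and -2 in Cav1 and at -9 and -4 in Cav2, counted from the gene start as 1 with no position 0, and the 2 in Cav2 share a base. A CCAAT box was found in 4 of 5 (37.4% of all windows). The TATA box letters matched in Cav1 alone (13.6%), at -221 on the reverse strand. An AP-1 match was found in Cav2 alone (7.81%), at -92. The nuclear receptor motif AGGTCA (16.3%) and the forkhead motif TGTTTAC (3.65%) had no match in the 5 windows. These matches describe the letters of the windows only.

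Total counts per library ranged from 6969375 to 13516601. The share of 3851 genes of intermediate level (a median of 10 to 30 CPM, the count scaled to library size by TMM) that had no count was 4.18% in FVB week 10 replicate 3 and 2.93% in PyMT week 8 replicate 2, and 0 to 1.84% in the other 22 libraries. Both libraries were kept, and values without them are given below. Luminal epithelial markers were detected in all libraries, with a summed level of 2387 to 4501 CPM in PyMT and 482 to 2192 CPM in FVB. Of 7 such markers, 4, 3, 6 and 5 were higher in PyMT at weeks 6, 8, 10 and 12 (edgeR, a log2 fold change over 1 with adjusted p under 0.05). Of all 14918 tested genes, 3.58%, 3.57%, 4.83% and 7.75% were higher. Krt19, 1 of the 7, went the other way without passing, at -0.82, -0.32 and -1.18 at weeks 6, 8 and 12.

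Cav1, the principal caveolin outside muscle and the protein without which these cells form no caveolae, had the highest median level of the members in both genotypes, also per length. In FVB glands its level was 864, 741 and 1160 CPM at week 6, 1539, 954 and 1206 at week 8, 1434, 1740 and 1407 at week 10, and 1131, 1077 and 1775 at week 12. In PyMT tissue it was 113, 187 and 172 CPM at week 6, 128, 51.0 and 106 at week 8, 55.3, 80.2 and 67.5 at week 10, and 113, 90.7 and 55.2 at week 12. All 12 PyMT samples lay below all 12 FVB samples, and the 51.0 CPM of PyMT week 8 replicate 2 was the lowest value. The log2 fold change of PyMT against FVB was -2.55 ± 0.28, -3.69 ± 0.40, -4.48 ± 0.25 and -3.93 ± 0.34 in order of week (SE, n = 3 per group), which is 5.84-fold, 12.9-fold, 22.3-fold and 15.2-fold lower. Without PyMT week 8 replicate 2 the week 8 value was -3.39, and without FVB week 10 replicate 3 the week 10 value was -4.53.

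Cav2, which forms mixed oligomers with caveolin-1 and needs it to reach the plasma membrane, had the smallest fitted difference of the members at every week, though at week 10 it was level with Prkcdbp. FVB levels were 177, 151 and 217 CPM at week 6, 248, 187 and 222 at week 8, 271, 317 and 232 at week 10, and 236, 188 and 311 at week 12. PyMT levels were 73.8, 89.9 and 61.1 CPM at week 6, 67.6, 24.7 and 69.5 at week 8, 46.2, 58.0 and 42.9 at week 10, and 52.4, 57.3 and 47.8 at week 12. The genotypes did not overlap, and the low value at week 8 again came from replicate 2. The log2 fold changes were -1.27 ± 0.22, -2.02 ± 0.38, -2.46 ± 0.21 and -2.20 ± 0.22 at weeks 6, 8, 10 and 12 (SE, n = 3 per group), or 2.42-fold, 4.06-fold, 5.50-fold and 4.61-fold lower. Without the 2 libraries with many genes at 0, the values were -1.68 at week 8 and -2.56 at week 10. The order of Cav2 and Prkcdbp turned without FVB week 8 replicate 3 (-1.98 and -1.88) and, at week 10, without FVB replicate 1 (-2.47 and -2.40), FVB replicate 2 (-2.34 and -2.28) or PyMT replicate 2 (-2.60 and -2.41).

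**Figure D1:**
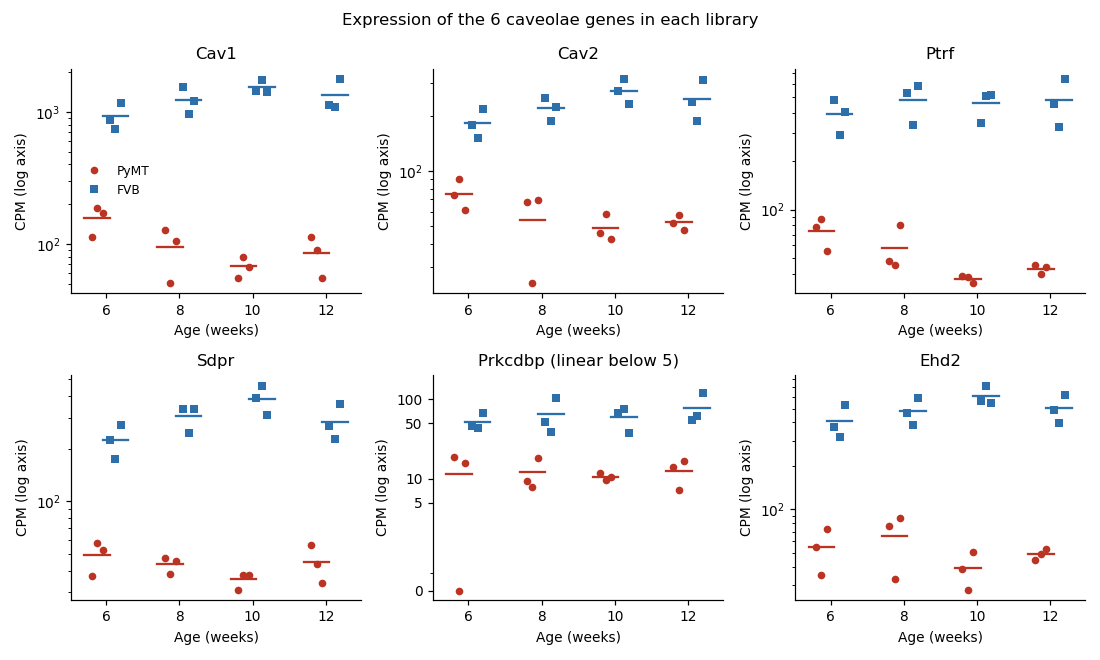
Level of each of the 6 genes in each library in CPM (log axis, linear below 5 for Prkcdbp) by age in weeks, with PyMT as circles, FVB as squares and bars at the means of 3. In each panel all 3 PyMT points lie below all 3 FVB points at every week, and the Prkcdbp point at 0 is PyMT week 6 replicate 2.

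Divided by exon length, Cav1 exceeded Cav2 by a different factor in the 2 genotypes. In FVB the ratio of Cav1 to Cav2 in RPKM (CPM per kilobase of exon) was 4.66 to 6.02 over the 12 libraries with a median of 5.23. In PyMT it was 1.12 to 2.73 with a median of 1.53. The highest PyMT ratio, at week 6, was below the lowest FVB ratio. By week the mean ratio in PyMT was 2.08 ± 0.624, 1.78 ± 0.267, 1.34 ± 0.182 and 1.58 ± 0.486 (SD, n = 3), and in FVB it was 4.90 ± 0.261, 5.41 ± 0.551, 5.46 ± 0.386 and 5.25 ± 0.516. Since the PyMT against FVB contrast chose the set, this ratio is also a description.

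**Figure D2:**
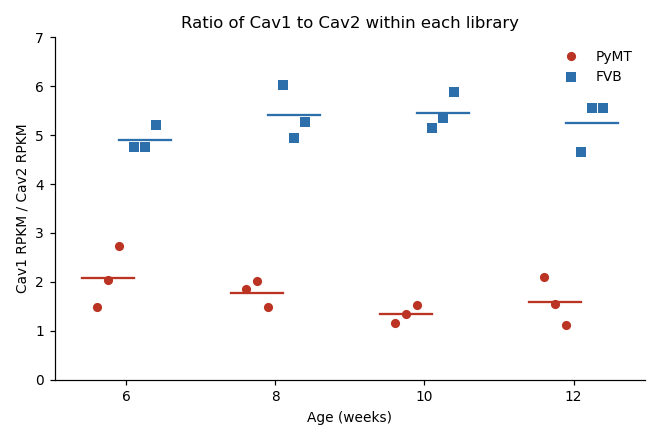
Ratio of Cav1 RPKM to Cav2 RPKM in each library by age in weeks, with PyMT as circles, FVB as squares and bars at the means of 3. PyMT libraries lie between 1.12 and 2.73 and FVB libraries between 4.66 and 6.02.

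Ptrf (cavin-1), the cavin on which coat assembly depends, was at 482, 291 and 403 CPM in FVB at week 6, 527, 333 and 584 at week 8, 346, 508 and 516 at week 10, and 455, 326 and 649 at week 12. In PyMT it was at 78.0, 87.5 and 55.4 CPM at week 6, 47.9, 45.0 and 80.3 at week 8, 38.8, 37.9 and 35.2 at week 10, and 45.2, 39.6 and 44.2 at week 12. The PyMT values of weeks 10 and 12 lay within 35.2 to 45.2 CPM, below all but 1 of the 6 PyMT values of weeks 6 and 8, which was 45.0. The log2 fold changes against FVB were -2.41 ± 0.27, -3.06 ± 0.33, -3.59 ± 0.23 and -3.45 ± 0.28 in order of week (SE, n = 3 per group).

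Sdpr (cavin-2), which helps to shape the membrane, was at 223, 175 and 274 CPM in FVB at week 6, 338, 246 and 338 at week 8, 392, 460 and 313 at week 10, and 271, 227 and 360 at week 12. In PyMT it was at 37.3, 57.8 and 52.4 CPM at week 6, 46.9, 38.0 and 45.6 at week 8, 31.1, 37.8 and 37.9 at week 10, and 56.2, 43.5 and 34.0 at week 12. All PyMT samples lay below the lowest FVB sample, and the PyMT samples of week 10 lay just below those of week 8 (37.9 against 38.0 CPM at the nearest). The log2 fold changes were -2.18 ± 0.25, -2.82 ± 0.22, -3.43 ± 0.22 and -2.66 ± 0.26.

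Prkcdbp (cavin-3), a cavin first described as a protein kinase C delta binding protein, was the member with the lowest counts. FVB levels were 46.0, 43.1 and 67.1 CPM at week 6, 51.7, 38.8 and 105 at week 8, 66.8, 75.8 and 37.8 at week 10, and 54.9, 61.4 and 120 at week 12. PyMT levels were 18.8, 0 and 16.0 CPM at week 6, 9.51, 7.99 and 18.5 at week 8, 11.8, 9.60 and 10.6 at week 10, and 14.0, 7.21 and 16.7 at week 12. The 0 in PyMT week 6 replicate 2 stood apart, since the other PyMT libraries held 56 to 261 Prkcdbp counts. A count of 0 there allows up to 0.36 CPM (3 counts, counting error only). The log2 fold change at week 6 was -2.15 ± 1.06 with this library and -1.53 without it, and it was -2.43 ± 0.48, -2.48 ± 0.33 and -2.61 ± 0.42 at the later weeks.

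Ehd2, the ATPase at the caveola neck, was at 374, 315 and 533 CPM in FVB at week 6, 467, 385 and 595 at week 8, 560, 720 and 549 at week 10, and 487, 397 and 623 at week 12. In PyMT it was at 54.5, 35.0 and 73.6 CPM at week 6, 76.3, 33.0 and 87.1 at week 8, 38.8, 27.8 and 50.3 at week 10, and 44.3, 49.3 and 52.7 at week 12. The genotypes were well apart, with a lowest FVB sample at 315 CPM and a highest PyMT sample at 87.1 CPM. The log2 fold changes were -2.90 ± 0.33, -2.88 ± 0.38, -3.95 ± 0.29 and -3.34 ± 0.23.

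In bulk tissue, fewer cells of a type and less RNA per cell cannot be told apart, which holds for each of these differences. The median log2 fold change of the 6 members was -2.30, -2.85, -3.51 and -3.00 in order of week, while the median of all tested genes lay between -0.0781 and 0.00699. By the call used for all genes, 5 members were lower in PyMT at week 6, where 6.46% of tested genes were, and Prkcdbp was not among them. All 6 were at weeks 8, 10 and 12, where 6.37%, 9.09% and 13.0% of tested genes were. All 3 PyMT values lay below all 3 FVB values for 6 of 6 members at each week, against 20.6%, 21.2%, 20.9% and 24.3% of tested genes at weeks 6, 8, 10 and 12. Nothing is read from these counts, or from the separation of all 12 PyMT from all 12 FVB samples above, because the contrast chose the set. The share of all tested genes that separate over all weeks in this way is not given. With library size alone as the scaling, the genes called lower and higher moved from 964 and 534 to 654 and 779 at week 6, from 951 and 533 to 745 and 830 at week 8, from 1356 and 720 to 956 and 989 at week 10, and from 1936 and 1156 to 1527 and 2054 at week 12, and the members called lower were still 5, 6, 6 and 6. The week 8 count was 4 without PyMT replicate 1, where Cav2 (-2.22) and Prkcdbp (-2.29) were not called and the genes called lower over all tested fell from 951 to 319. It was 5 without PyMT replicate 2, FVB replicate 2 or FVB replicate 3, with 910, 464 and 615 genes called lower. The week 6 count was 4 without PyMT replicate 1, where Cav2 (-1.21) was not called and 534 genes were called lower against 964.

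**Figure D3:**
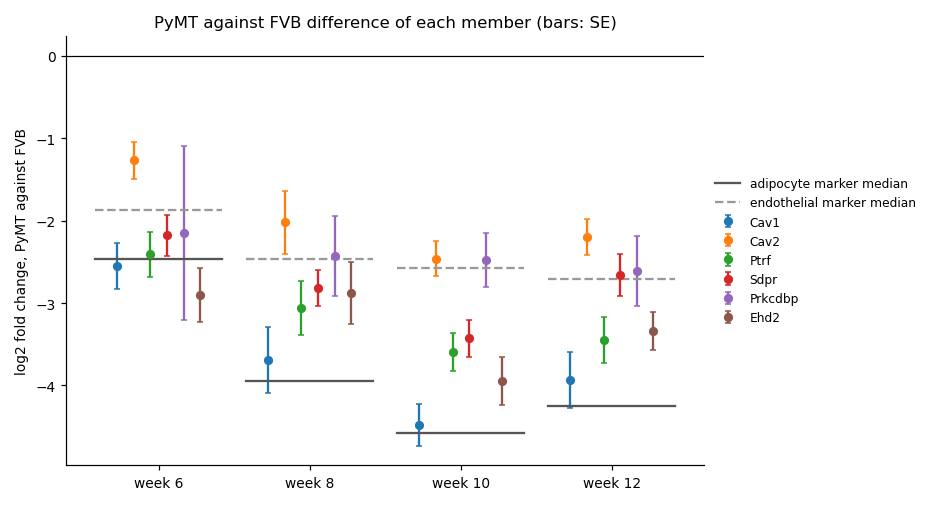
Log2 fold change of PyMT against FVB for each member by week with its SE (n = 3 per group), and the median of 10 adipocyte markers (solid line) and 10 endothelial markers (dashed line). Cav2 is nearest to 0 at weeks 6, 8 and 12 and level with Prkcdbp at week 10, and Cav1 is the lowest at weeks 8, 10 and 12.

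Per length, the order of the levels differed between genotypes. The median FVB levels were 344 RPKM for Cav1, followed by Ehd2 (group means of 79.8 to 120.0 RPKM), 96.0 for Sdpr, 89.7 for Ptrf, 68.1 for Cav2 and 56.2 for Prkcdbp. Only Cav1 stood apart there, with group means of 268 to 445 RPKM, whereas the group means of each neighboring pair among the other 5 overlapped. The median PyMT levels were 28.7 RPKM for Cav1, 17.3 for Cav2, 13.3 for Sdpr, 10.8 for Prkcdbp, 9.76 for Ehd2 and 8.63 for Ptrf. In PyMT the group means of all neighbors in the order overlapped, including those of Cav1 at 19.7 to 45.8 and Cav2 at 14.7 to 22.5.

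Whether the members moved between stages was a comparison that the selection had not used, and it was tested with edgeR's quasi-likelihood test on all 8 groups. Within PyMT, all 6 members had lower fitted values at weeks 10 and 12 than at weeks 6 and 8, as did 51.7% of all tested genes. The members share their libraries, so their directions are not 6 separate observations. At an adjusted p under 0.05, 0 of 6 members and 0.0% of all tested genes passed. Ptrf had the strongest evidence, at -0.70 on the log2 scale (95% interval -1.11 to -0.29, edgeR adjusted p = 0.372), followed by Cav1 at -0.68 (-1.15 to -0.21, edgeR adjusted p = 0.644). Ehd2 was at -0.45 (-0.92 to 0.02), Cav2 at -0.33 (-0.74 to 0.09), Sdpr at -0.22 (-0.56 to 0.13) and Prkcdbp at -0.03 (-1.12 to 1.06). At an unadjusted p under 0.05 there were 2 members, Ptrf and Cav1, and 798 of all genes (5.35%), and DESeq2 called 0 members and 54 genes. Without the 2 libraries with many genes at 0, Cav1 was at -0.83, Ptrf at -0.78 and Ehd2 at -0.61, and 0 members passed. Intervals of this width leave room for falls of over 2-fold in Cav1 and Ptrf.

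Between single stages the picture was similar. From week 6 to week 12 of PyMT, Cav1 differed by -0.87 (-1.53 to -0.20, edgeR adjusted p = 0.52) and Ptrf by -0.78 (-1.36 to -0.19, edgeR adjusted p = 0.493). Across the adenoma to early carcinoma step, week 10 against week 8, Ehd2 differed by -0.75 (-1.42 to -0.08) and Ptrf by -0.63 (-1.21 to -0.05), both with an edgeR adjusted p of 1.0. In each of these comparisons 0 of 6 members passed with edgeR (2 members each at an unadjusted p under 0.05) and with DESeq2, and 0.0% of all tested genes passed with edgeR. At an unadjusted p under 0.05 there were 1004 and 262 genes over all tested, and DESeq2 called 114 and 2.

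Within FVB glands, all 6 fitted values were higher at weeks 10 and 12 than at weeks 6 and 8, while 51.1% of all tested genes were lower. The members differed by 0.10 for Ptrf to 0.42 for Cav1 on the log2 scale. Sdpr was the only member with an unadjusted p under 0.05, at 0.34 (0.01 to 0.68, edgeR adjusted p = 0.763). With edgeR, 0 of 6 members and 0.0134% of all genes passed, 974 genes (6.53%) had an unadjusted p under 0.05, and DESeq2 called 0 members among 44 genes. From week 6 to week 12 the FVB values were 0.28 to 0.60, again with 0 members (0 at an unadjusted p under 0.05, 0 with DESeq2) and 0.0% of genes passing with edgeR, where 625 genes (4.19%) had an unadjusted p under 0.05 and DESeq2 called 21.

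How far the PyMT against FVB difference itself moved from the earlier to the later weeks was fitted as an interaction. It was below 0 for all 6 members and for 48.3% of all tested genes. Such changes are built from the weekly PyMT against FVB differences that chose the set, so the values of this paragraph are a description. Cav1 had a change of -1.10 (-1.76 to -0.44, edgeR adjusted p = 0.66), Ptrf of -0.81 (-1.38 to -0.23), Ehd2 of -0.77 (-1.44 to -0.11), Cav2 of -0.70 (-1.28 to -0.12), Sdpr of -0.56 (-1.04 to -0.08) and Prkcdbp of -0.27 (-1.80 to 1.25). The intervals of 5 members lie below 0, yet with edgeR 0 members and 0.0% of all genes passed after adjustment over 14918 genes, where 815 genes (5.46%) had an unadjusted p under 0.05. DESeq2 gave an adjusted p of 0.0423 for Cav1 at -1.12, 1 of 13 genes it called, while over the other 29 settings the adjusted p of Cav1 lay between 0.225 and 0.974. From week 6 to week 12 alone the change was -1.39 for Cav1 (-2.33 to -0.46, edgeR adjusted p = 0.923) and -0.46 to -1.06 for the other 5, with 0 members (3 at an unadjusted p under 0.05, 0 with DESeq2) and 0.0% of genes passing in edgeR. Over all genes, 691 (4.63%) had an unadjusted p under 0.05 there and DESeq2 called 11. These contrasts share their libraries with the within-genotype comparisons above.

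**Figure D4:**
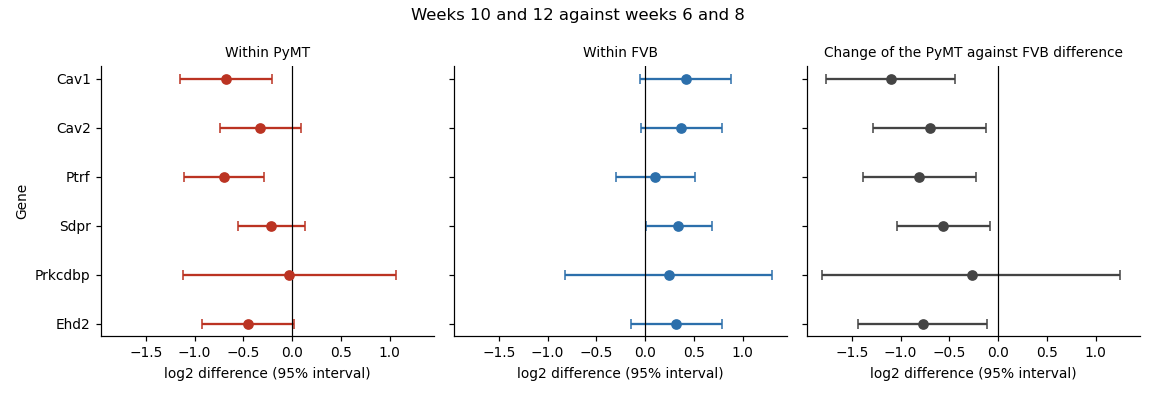
Log2 difference of weeks 10 and 12 against weeks 6 and 8 with its 95% interval for each member within PyMT, within FVB, and for the interaction of genotype with these weeks. All 6 points lie below 0 in PyMT and above 0 in FVB, and no member passed the adjusted test in edgeR.

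Since caveolae are dense in adipocytes and endothelial cells, markers of both were followed. All 10 adipocyte markers (among them Adipoq, Plin1 and Lep) had a log2 fold change below 0 at each week, 10, 9, 10 and 10 of them passed as lower in PyMT, and their median was -2.47, -3.94, -4.58 and -4.25. Their summed level was 145 to 2022 CPM in PyMT and 6636 to 17587 CPM in FVB, with no marker at 0 in any library. Of 10 endothelial markers (among them Pecam1, Cdh5 and Kdr), 8, 10, 10 and 10 passed as lower, with medians of -1.87, -2.46, -2.58 and -2.71. Their sums were 113 to 296 CPM in PyMT and 688 to 1249 CPM in FVB, again with none at 0. All 5 fibroblast markers were also below 0 (5, 4, 5 and 5 passed), and 3, 3, 4 and 4 of 8 smooth muscle and myoepithelial markers passed as lower. Of those 8, Acta2 (-3.08), Myh11 (-3.40) and Cnn1 (-3.33) were far below 0 at week 12, while the basal keratins were at 0.41 for Krt5, 1.05 for Krt14 and -2.19 for Krt17, of which none passed. Macrophage markers showed no common direction, with 0, 0, 2 and 0 of 6 lower and 1, 0, 0 and 0 higher. The part of these cells in the caveolae genes was not tested.

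Skeletal muscle RNA varied between libraries, with a summed level of 10 markers of 8.75 to 3736 CPM in PyMT and 14.8 to 63816 CPM in FVB, and 0, 2, 0 and 7 markers lower in PyMT at weeks 6, 8, 10 and 12. Of these markers 9 were at 0 in at least 1 PyMT library and 7 in at least 1 FVB library. The muscle forms of the caveola coat are Cav3 and Murc (cavin-4). Cav3 was not tested, with 0 to 114 counts and none in 14 libraries, and Murc had log2 fold changes of -3.29, 0.36, -2.97 and -4.09 and passed at week 12 only (edgeR adjusted p = 0.0486). The part of muscle RNA in these values was not tested.

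Within a genotype, the level of the caveolins followed the adipocyte markers from library to library. Over 12 PyMT libraries, Pearson's r between log2 CPM of Cav1 and the mean of the 10 adipocyte markers was 0.903 (permutation p = 1e-05, the smallest 100000 resamples can give, adjusted p = 0.00024 over 24 relations), and Spearman's rho was 0.923 (permutation p = 8e-05, adjusted p = 0.0008). For Cav2 in PyMT r was 0.927 (permutation p = 5e-05, adjusted p = 0.00056) and rho was 0.923 (permutation p = 5e-05, adjusted p = 0.0008). Over 12 FVB libraries, Cav1 had an r of 0.893 (permutation p = 7e-05, adjusted p = 0.00056) and a rho of 0.860 (permutation p = 0.00054, adjusted p = 0.00324). Cav2 in FVB had an r of 0.882 (permutation p = 0.00011, adjusted p = 0.00066) and a rho of 0.909 (permutation p = 0.0001, adjusted p = 0.0008). These 4 relations also passed without the 2 libraries farthest from the median marker level, with r at 0.948, 0.812, 0.806 and 0.80 in the order given. On deviations from the mean of each week, r was 0.906, 0.897, 0.819 and 0.797. The genotypes form separate clusters, so no r was computed over both.

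**Figure D5:**
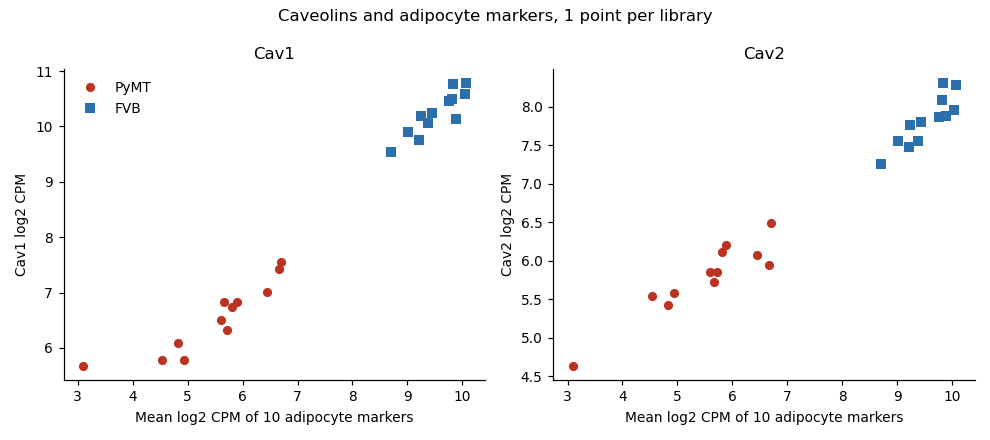
Log2 CPM of Cav1 and of Cav2 against the mean log2 CPM of 10 adipocyte markers, with 1 point per library, PyMT as circles and FVB as squares. Within each genotype the points rise together (r of 0.903 and 0.893 for Cav1, 0.927 and 0.882 for Cav2, in PyMT and FVB), and the lowest point is PyMT week 8 replicate 2.

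The cavins and Ehd2 were less tightly tied to the adipocyte markers. In PyMT, Ptrf had an r of 0.499 (rho 0.734), Ehd2 of 0.427 (rho 0.392) and Prkcdbp of -0.267 (rho 0.056), with permutation adjusted p for r of 0.145, 0.192 and 0.367. For rho, Ptrf in PyMT did pass (permutation p = 0.00859, adjusted p = 0.0239), while Ehd2 and Prkcdbp did not. Sdpr in PyMT passed for r at 0.657 (permutation p = 0.0174, adjusted p = 0.0348). It did not pass for rho at 0.615 (permutation p = 0.0372, adjusted p = 0.0598). In FVB, Sdpr (0.796), Ehd2 (0.729) and Ptrf (0.678) passed for r and Prkcdbp (0.430, permutation adjusted p = 0.192) did not. With the 10 endothelial markers, 4 members passed for r in PyMT, Cav2 at 0.751, Ptrf at 0.737, Cav1 at 0.685 and Ehd2 at 0.643. Of these, Ehd2 did not pass for rho at 0.622 (permutation p = 0.0354, adjusted p = 0.0598). In FVB 1 member passed for r, Prkcdbp at 0.682. On deviations from the mean of each week, 2 members passed with endothelial markers in PyMT (Cav2 at 0.699 and Ehd2 at 0.633) and 5 in FVB (Sdpr at 0.871, Cav2 at 0.806, Cav1 at 0.732, Ehd2 at 0.725 and Prkcdbp at 0.636). With adipocyte markers, the deviations gave 2 passing members in PyMT, the caveolins. In FVB they gave 4, with Ptrf at 0.741 and Sdpr at 0.757. The permutations on deviations mixed libraries of different weeks and made no allowance for the week means taken out, so relations pass too readily. Ehd2 in PyMT and Prkcdbp in FVB, with endothelial markers, passed only narrowly (permutation adjusted p = 0.0495 for each). On the values themselves, 13 of the 24 relations passed for r. Of these, the 9 other than Cav1 and Cav2 with adipocyte markers did not pass without the 2 farthest libraries. Over the 10 libraries left, r of these 9 was 0.401 to 0.741. It was no lower for Ptrf with endothelial markers (0.741) and Sdpr with adipocyte markers (0.716) in PyMT, and it fell most for Ptrf (0.401) and Ehd2 (0.471) with adipocyte markers in FVB and Ehd2 with endothelial markers in PyMT (0.413). PyMT week 8 replicate 2, 1 of the 2 libraries with many genes at 0, had the lowest PyMT sums of both marker lists (145 and 113 CPM) and was 1 of the 2 left out in PyMT. Differences between members in r were not tested. How many of all tested genes would pass these relations was not computed, so nothing particular to the members is read from the counts.

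The other genes of the caveola neck had medians nearer to 0 than those of the members, and single genes moved in both directions. Of 9 genes for neck benders 8 were tested, and 1, 1, 2 and 3 passed as lower in PyMT and 1, 0, 1 and 1 as higher at weeks 6, 8, 10 and 12, with 6, 5, 6 and 7 of 8 below 0 and medians of -0.62, -0.20, -0.83 and -0.50. Dnm1, a dynamin best known from neurons, passed as lower at each week, at -2.04, -2.81, -2.29 and -2.62. At weeks 6, 8 and 12 Dnm1 lay below the member Cav2 (-1.27, -2.02 and -2.20). Ehd1, a relative of Ehd2 in endocytic recycling, passed at week 10 (-1.46) and week 12 (-1.26), and Dnm3 at week 12 (-1.69). Ehd3, another recycling paralog, was the gene that passed as higher, at 1.39, 1.16 and 2.36 at weeks 6, 10 and 12. Dnm2, the dynamin of most cells, was at -0.37 to -0.03. Pacsin2, the bender that helps to shape caveolae, was at -0.97 to -0.29 and did not pass the call. Below the fold required, Pacsin2 reached an edgeR adjusted p of 0.044 at week 10 (-0.97). Ehd1 likewise reached an edgeR adjusted p of 0.0174 at week 6 (-0.95). Pacsin1 had 0 to 35 counts and was not tested.

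Of 10 proteins known to sit in caveolae, all had log2 fold changes below 0 at each week, and 4, 4, 5 and 7 passed as lower. The fatty acid transporter Cd36 passed at all weeks, at -2.35, -3.74, -4.32 and -4.06, as did the water channel Aqp1 of endothelium, at -2.17, -2.47, -2.56 and -2.29. The insulin-responsive glucose transporter Slc2a4 was at -3.95 and endothelial nitric oxide synthase Nos3 at -3.38 at week 12, where both passed. The receptor Bmpr2, at -0.53 to -0.24, passed at no week. Some of these genes are expressed chiefly in adipocytes or endothelium, and the part of these cells in the values was not tested.

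Genes of other membrane domains did not pass the call. The flotillins Flot1 and Flot2, which organize caveolin-free domains, were between -0.53 and 0.16, and 0 of 2 passed at any week by edgeR or DESeq2, with Flot2 at week 6 the only unadjusted p under 0.05. Of the 8 genes of the clathrin and AP2 coat, the main other route of endocytosis, 0 passed at any week by edgeR or DESeq2, with medians of 0.21, 0.11, 0.28 and 0.23 and with 1, 1, 3 and 1 genes at an unadjusted p under 0.05. In this list Ap2b1 reached an edgeR adjusted p of 0.0164 at week 10 and 0.0324 at week 12 below the fold required, at 0.87 and 0.61. The nearest genes beside the caveolins on chromosome 6 (Mdfic, Tes, Met, Capza2 and St7) were between -0.64 and 0.80, and 0 of 5 passed at any week by edgeR or DESeq2 (1, 1, 1 and 3 at an unadjusted p under 0.05), while Tcfec, with 0 to 25 counts, was not tested. Below the fold required, Met reached an edgeR adjusted p of 0.0379 at week 12, at 0.68. DESeq2 gave an adjusted p under 0.05 to 1 of these neighbors at week 6 and to 2 at week 12, also below that fold. The distance was 175357 bases from Tes to Cav2 and 122348 bases from Cav1 to Met. The gene Gm15581 overlaps both caveolins on the opposite strand and held 0 to 4 counts.

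Around the group means, the members followed each other to different degrees over the 24 libraries. Pearson's r of these deviations in log2 CPM was 0.848 between Cav1 and Sdpr and 0.793 between Cav1 and Cav2. Cav1 was the gene most like Sdpr among 14917, and Cav2 ranked 36 for Cav1. Over the 10 pairs without Prkcdbp, r ranged from 0.348 to 0.848. Prkcdbp had -0.089 to 0.582 with the others, and 0.288 to 0.602 without PyMT week 6 replicate 2. All values share their libraries and depth and are given as a description.

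Outside the set, the genes most like Cav1 were Lpl (0.920), the lipoprotein lipase, Cd36 (0.902) and Mmd (0.894). For Cav2 they were Hspa12a (0.921), Cyp4b1 (0.883) and Prrg3 (0.883). For Sdpr they were Plxna2 (0.812), the semaphorin co-receptor Nrp1 (0.807) and Gpr116 (0.805). Ptrf had no gene as close, with Lrrc48 (0.766), Fez2 (0.738) and 1110020A21Rik (0.737) at the top, and for Ehd2 they were Stx2 (0.904), Lasp1 (0.892) and Ece1 (0.875). For Prkcdbp they were Notch4 (0.945), Map3k14 (0.943) and Cpne2 (0.930). In PyMT week 6 replicate 2, which has no Prkcdbp count, these 3 genes had 0, 1 and 0 counts, and without this library r fell to 0.726, 0.580 and 0.663.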

How the data were processed

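Total RNA from snap-frozen mammary tissue was depleted of ribosomal RNA and sequenced with a directional protocol. Per the study's methods and the labels, the authors aligned reads to mm9 with GSNAP and counted them per gene with HTSeq, and the deposited table holds these raw counts. HTSeq's strand setting is not given in the sources used here. All 24 count columns were used (3 mice in each of 8 groups).

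Counts were analyzed in R 4.3.3 with edgeR 4.0.16. Genes reaching 1 CPM in 12 or more samples were kept (14918 of 37991, all 6 members among them). Counts were scaled by TMM. PyMT and FVB were compared week by week (6 samples each) with the quasi-likelihood test, and a gene was called at a Benjamini-Hochberg adjusted p under 0.05 and an absolute log2 fold change over 1. Weeks were compared in 1 fit of 8 groups, and called at an adjusted p under 0.05. CPM values are scaled by TMM, and RPKM values divide them by the exon length in GENCODE M1, which held 37205 of the genes. Log2 CPM used a prior count of 2. Correlations with marker means used two-sided permutation tests with 100000 resamples. The members and gene lists were chosen with earlier results of these data known. All 6 members are named, with the 3 genes most like each. In simulations with 200 genes changed 4-fold, the week 12 fit recovered 50% and the shared fit, for PyMT week 12 against week 6, 55%. Recovery was counted at an adjusted p under 0.05 without the fold threshold. Smaller changes, and a number of changed genes as large as in the week 12 data, were not simulated. Libraries of a group differed by more than sampling noise (chi-square per gene of 19.3 or more in 24 pairs). Deviations of same-numbered PyMT and FVB samples of a week correlated at -0.0413 to 0.198 (over 0.1 in 4 of 12 pairs). Differently numbered samples reached at most 0.0883, so a weak effect shared by replicate number may be present. The main fits did not use the numbers as pairs, and the replicate block among the alternatives took them in. Alternatives were RLE scaling, library size alone, no filter, DESeq2 1.42.0, other choices of samples in the fit, a replicate block and each library left out. Dropping PyMT week 6 replicate 2 from the likeness values was added after seeing the data.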

Additional observations from a re-analysis of the deposited data

How the results depend on the processing

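Of 288 refits of the PyMT against FVB values of single members, 281 kept both direction and call and none changed sign. These refits share their libraries and use the contrast that chose the set, so the tally is a description. Cav2 was not called without PyMT week 6 replicate 1 (-1.21), PyMT week 8 replicate 1 (-2.22) or FVB week 8 replicate 2 (-2.12), and Prkcdbp was not called at week 8 without PyMT replicate 1 (-2.29), PyMT replicate 2 (-2.21) or FVB replicate 3 (-1.88), while it became called at week 6 without PyMT replicate 2 (-1.53). With each library left out in turn, the members called lower numbered 4 to 6 at week 6, 4 to 6 at week 8 and 6 at weeks 10 and 12. Scaling by library size alone moved the median of all genes by 0.24 to 0.32 on the log2 scale, and the members then lay between -4.19 and -1.02. DESeq2 called 1485 genes lower at week 6 and 1648 at week 8, against 964 and 951 with edgeR. A replicate block left the members called at 5, 6, 6 and 6 and changed no other count of members.

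Between weeks, 400 of 408 refits kept direction and call. For Prkcdbp in PyMT, weeks 10 and 12 against weeks 6 and 8, the replicate block gave 0.08 and the values with 1 library left out ran from -0.32 to 0.22. For Ptrf in FVB over the same weeks they ran from -0.04 to 0.21. The DESeq2 Wald test called 1 member (Cav1) in the change between earlier and later weeks. Without the 2 libraries farthest from the median marker level, 4 of 24 relations passed for r against 13, with 10 libraries each. With library size scaling 17 passed for r. The cause of these shifts was not tested. For PyMT week 12 against week 6, 65 genes passed in a fit of those groups only, 8 without the filter and 7 without the 2 libraries with many genes at 0, with no member among them. Groups of 3 limit what the between-week tests can show.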
